A study of Mus musculus with 3 samples.

Results

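The calponins (Cnn1, Cnn2, Cnn3), the transgelins (Tagln, Tagln2), caldesmon (Cald1), leiomodin 1 (Lmod1) and smoothelin (Smtn) are actin-binding proteins of smooth muscle and of cells that contract like it. These 8 genes were followed through 3 culture states of mouse cardiac myofibroblasts, the contractile, matrix-producing fibroblasts that appear in the injured heart. The genes were chosen by name and function, with earlier results of these data known. Every array probe whose RefSeq transcript belongs to 1 of them was taken, which gave 13 probes, among 15394 genes measured in all. In male C57BL/6J mice the left anterior descending artery of the heart was tied off for good. Hearts were taken 3 days later and digested with collagenase and elastase, and the cells that attached to plastic overnight were depleted of CD45-carrying leukocytes. The age of the mice is 8 weeks in one label and 10 weeks in another. The adherent cells stayed on plastic plates, the non-adherent cells were moved from plates into suspension, and the re-adherent cells went from suspension back to plates, so all 3 groups share the infarct, the digestion and the negative sort. RNA was pooled from several hearts and hybridised to 1 Agilent array per state, so a difference between states could be set against the technical error of the spots but against no spread between cultures, and no p-value is given. The states were also collected one after another, so time in culture and state cannot be told apart.

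Calponins and caldesmon bind along the actin filament and, in smooth muscle, restrain its interaction with myosin. Transgelins bind and bundle actin filaments, smoothelin lies on the stress fibres of contractile smooth muscle, and leiomodin starts new filaments. Cnn1, Tagln, Lmod1 and Smtn are classical markers of differentiated smooth muscle, and several of them are switched on when fibroblasts become myofibroblasts, whereas Cnn2, Cnn3 and Tagln2 are made by many cell types. Transcription of the smooth-muscle genes is known to depend on serum response factor (Srf), which binds the CArG box, and on the TEAD factors, which bind the M-CAT element.

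The stretches of promoter that hold either element are shown first, because both factors are well known regulators of this gene group. The windows ran from 250 bases before to 50 bases after each annotated start in RefSeq (assembly GRCm38.p6), and 7 of the 8 genes matched an entry, while Tagln did not. The CArG box, searched by its standard pattern of CC and GG around a run of A and T, was found in 1 of the 7 genes, Cnn2, against 1.81% of all 27025 genes with a window. The M-CAT element, searched as CATTCC or its reverse complement GGAATG, was found in 4 of the 7, namely Lmod1, Tagln2, Cald1 and Smtn, against 16.6% of all genes. The sequences below run 5′ to 3′ along the strand of the gene with the element in capitals. They lie at chr10:79988534-79988563 for Cnn2, chr1:135324671-135324700 for Lmod1, chr1:172500116-172500145 and chr1:172500154-172500183 for Tagln2, chr6:34598339-34598368 for Cald1 and chr11:3539497-3539526 for Smtn, whose gene is on the minus strand.
Cnn2, CArG box: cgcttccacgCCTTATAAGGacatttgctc
Lmod1, M-CAT: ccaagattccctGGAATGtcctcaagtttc
Tagln2, first M-CAT: tcctttacggctCATTCCtgcctactgacc
Tagln2, second M-CAT: taagcgctccagCATTCCacgcggcggcgc
Cald1, M-CAT: gagcatgcctagGGAATGacaggcatctgc
Smtn, M-CAT: cggtttgtggcaCATTCCggactttggctt
The Cnn2 box begins 56 bases upstream of the start, the 2 Tagln2 elements begin 118 and 80 bases upstream, and those of Lmod1, Cald1 and Smtn begin 130, 153 and 222 bases upstream. Of the commoner elements, the GC box (GGGCGG, either strand) was present in 6 of the 7 genes against 38.2% of all genes, and the TATA box (TATAAA, either strand) in 1, Cald1, against 15.7%. Cald1 has 2 annotated starts, so the 7 genes had 8 windows. Its TATA box lies in the window of the other start than its M-CAT element. None of these matches overlapped one another. These are matches of letters in a short window and were not measured as binding.

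All 8 genes were lower in suspension than on plates, and all 8 were higher again after re-plating. Levels are given on a log2 scale, as the log2 signal of a probe minus the 75th percentile of its array, and a difference of 1 on that scale is 2-fold. In non-adherent against adherent cells, 7 of the 8 genes were over 2-fold lower, where 14.7% of all genes measured were. Over 4-fold lower were 5, against 5.34% of all genes, and over 16-fold lower were 3 (Cnn1, Tagln and Lmod1), against 1.03%. None was over 2-fold higher, while 17.2% of all genes were. In re-adherent against non-adherent cells, all 8 were over 2-fold higher (15.6% of all genes), 5 were over 4-fold higher (5.7%) and 3 over 16-fold higher (1.56%), and none was over 2-fold lower (16.3%). In both steps the share of the 8 genes past each fold in the shared direction was several times that of all genes. The 8 were chosen with earlier results of these data known, so this contrast is a description. The count of 8 was 7 under each of the other 4 scalings, where Tagln2 was under 2-fold. In re-adherent against adherent cells none was over 2-fold lower or higher, where 4.9% and 4.84% of all genes were, but without scaling 1 and with spike-in scaling 2 were over 2-fold lower. The median difference over the 8 genes was -3.33 in suspension, 3.51 on re-plating and 0.08 between the plated states, and the medians over all genes were -0.07, 0.08 and 0.06. In suspension the Lmod1 signal did not stand well above background, and with it raised to the lowest one well above background the medians were -3.24 and 3.00 and the 16-fold counts were 2 and 2. Whether the RNA came from fewer cells of a type or from less RNA per cell cannot be told apart in these mixed cultures. The paper reports that cell number fell strongly in suspension culture, which it puts down to death of detached cells. The part of this loss in the differences was not tested.

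Among the calponins, Cnn1, the basic calponin of differentiated smooth muscle, moved furthest. Its log2 level was 5.87 in adherent, -2.92 in non-adherent and 5.06 in re-adherent cells, from processed signals of 38092, 91.7 and 18109 before scaling. Both plated arrays were far above the suspension array, where the probe was still well above background. The difference was -8.80 ± 0.21 in suspension, 444-fold, where ± is the technical error that the scanner software assigns to the 2 spots. It was the 3rd largest loss among the 13996 genes well above background on both arrays. Genes not well above background on 1 of the 2 arrays compared, such as Lmod1, were not ranked for loss or gain. On re-plating the difference was 7.99 ± 0.21, 254-fold, the 3rd largest gain of 13565, and the re-adherent level was 57.2% of the adherent one (-0.81 ± 0.20).

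Cnn2, a calponin of fibroblasts, endothelium, blood cells and other non-muscle cells, had log2 levels of 5.92, 2.34 and 6.12 in adherent, non-adherent and re-adherent cells. The plated arrays were alike and the suspension array was the low one. Cnn2 was 12.0-fold lower in suspension (-3.58 ± 0.20) and 13.8-fold higher on re-plating (3.78 ± 0.20). Cnn3, the acidic calponin, found in many tissues including the brain, had levels of 6.00, 4.14 and 6.00, again with a single low array. Its differences were -1.86 ± 0.20 and 1.87 ± 0.20, 3.64-fold in each direction.

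The transgelins parted in the same way. Tagln, an early marker of smooth-muscle differentiation, had log2 levels of 9.15, 3.17 and 9.35 in adherent, non-adherent and re-adherent cells, from processed signals of 370324, 6281 and 353259. The signal remained far above background in suspension. Tagln was 63.1-fold lower there (-5.98 ± 0.20), 19th among the ranked losses, and 72.4-fold higher on re-plating (6.18 ± 0.20), 15th among the ranked gains. Tagln2, the broadly expressed transgelin, had levels of 8.69, 7.91 and 8.96, a much shallower dip on the suspension array. It was 1.72-fold lower in suspension (-0.78 ± 0.20), the smallest change of the 8 genes, and 2.06-fold higher on re-plating (1.04 ± 0.20). With quantile normalization its differences were -0.24 and 0.23, and the other scalings gave 0.68 to 0.79 on re-plating, so the size of the Tagln2 change depended on the scaling.

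Cald1, which encodes caldesmon, a protein that binds both actin and tropomyosin, had log2 levels of 3.83, 0.75 and 3.99. Only the suspension array was low. It was 8.50-fold lower in suspension (-3.09 ± 0.20) and 9.46-fold higher on re-plating (3.24 ± 0.20). Smtn, which encodes smoothelin, had levels of 4.62, 2.74 and 4.41 and was 3.67-fold lower (-1.88 ± 0.20) and then 3.17-fold higher (1.67 ± 0.20). Lmod1, the leiomodin of smooth muscle, had low processed signals of 138, 3.99 and 74.0 on the adherent, suspension and re-adherent arrays. It was well above background on both plated arrays and not on the suspension array, so its change there has only a bound. Against the lowest signal well above background, 14.0 on that array, Lmod1 was at least 10.6-fold lower in suspension and at least 6.79-fold higher on re-plating. The measured differences were -5.21 ± 1.45 and 4.57 ± 1.46, and after the normexp correction, which lifts dim signals, they were -1.63 and 1.31.

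**Figure D1:**
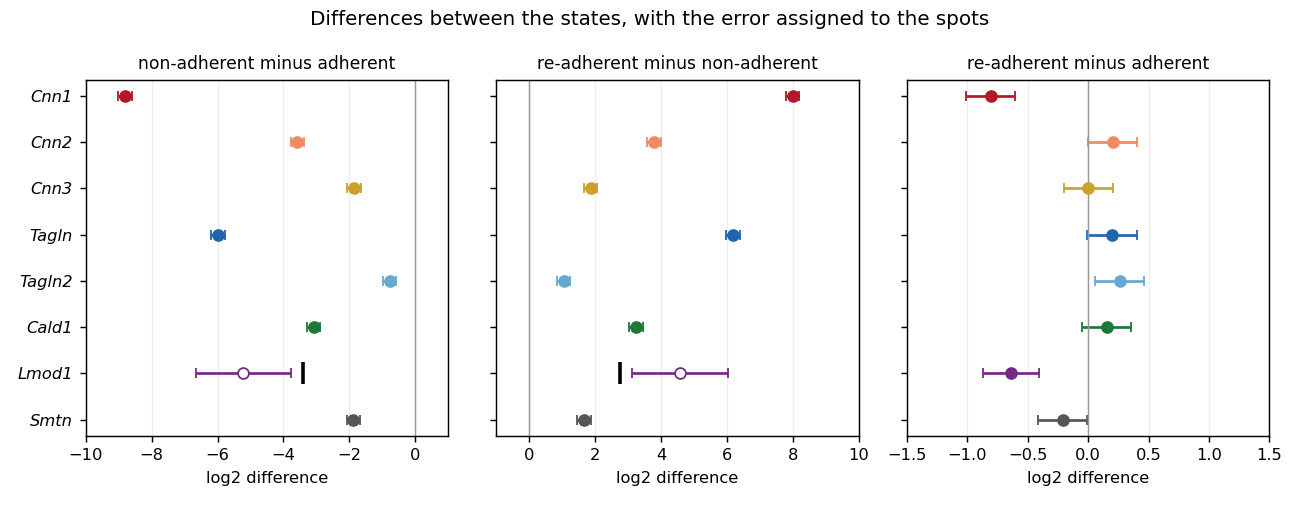
Log2 difference of each gene between the states, with the error the scanner software assigned to the 2 spots, in 3 panels with different horizontal ranges, where Lmod1 is open where its suspension signal was dim, with a black tick at its bound (3.40 and 2.76 in size). The first 2 panels run from -8.80 to -0.78 and from 1.04 to 7.99, and in the third all values lie between -0.81 and 0.26.

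In both steps paralogues of the same family differed from each other by more than the technical error assigned by the software. For bright spots that error was close to a fixed share of the signal, as with 3809 on 38092 for Cnn1 and 26947 on 269468 for Tagln2 in adherent cells. It was therefore nearly the same for every bright gene. Cnn1 was lower in suspension by a further -5.21 ± 0.29 than Cnn2, a 37.1-fold larger change, and by -6.93 ± 0.29 than Cnn3, a 122-fold larger one. The gap between Cnn2 and Cnn3 was -1.72 ± 0.29. Tagln exceeded Tagln2 by -5.20 ± 0.29, 36.7-fold. On re-plating these gaps were 4.20, 6.12, 1.92 and 5.13 with errors of 0.29. Under the 10 other ways of processing, the Cnn1 and Cnn2 gap in suspension ran from -5.24 to -4.38 and the Tagln and Tagln2 gap from -5.60 to -5.07. Only quantile normalization, the normexp correction and the mean of all probes moved these gaps. A constant per array cancels in a gap between 2 genes. In order of loss the 7 genes measured on all arrays were Cnn1, Tagln, Cnn2, Cald1, Smtn, Cnn3 and Tagln2, and Smtn and Cnn3 did not differ beyond their error. On re-plating the order was the same except that Cnn3 preceded Smtn, again within error. Lmod1 has no place in either order, since its suspension signal gives only a bound, of 3.40 and 2.76 on the log2 scale.

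Between re-adherent and adherent cells the same genes lay close together. Cnn1 (-0.81 ± 0.20) and Lmod1 (-0.64 ± 0.23, 64.3% of the adherent level) were lower in re-adherent cells by more than their technical error. Smtn at -0.21 ± 0.20 and Tagln2 at 0.26 ± 0.20 lay just beyond it, and Cnn2, Tagln, Cald1 and Cnn3 were at 0.20, 0.20, 0.15 and 0.00, within the error of 0.20. The 2 probes of Cnn2 were themselves 0.20 apart in this difference. Cnn1 remained below Cnn2 by -1.01 ± 0.29 and below Cnn3 by -0.81 ± 0.29, while Tagln and Tagln2 differed by -0.06 ± 0.29. The sign for Cnn1, Lmod1 and Smtn was negative under every way of processing tried. That for Cnn2, Tagln and Tagln2 turned negative without scaling, with quantile normalization and with spike-in scaling. For Cald1 it turned negative with the authors' scaling, without scaling and with spike-in scaling, and for Cnn3 it turned in 6 of 10 alternatives. No direction can therefore be given for these 5 genes. The other scalings moved the differences of all 8 genes down, except that of Lmod1 with quantile normalization. A sign that was negative as reported could thus hardly turn, so its keeping is no check for Cnn1, Lmod1 and Smtn.

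**Figure D2:**
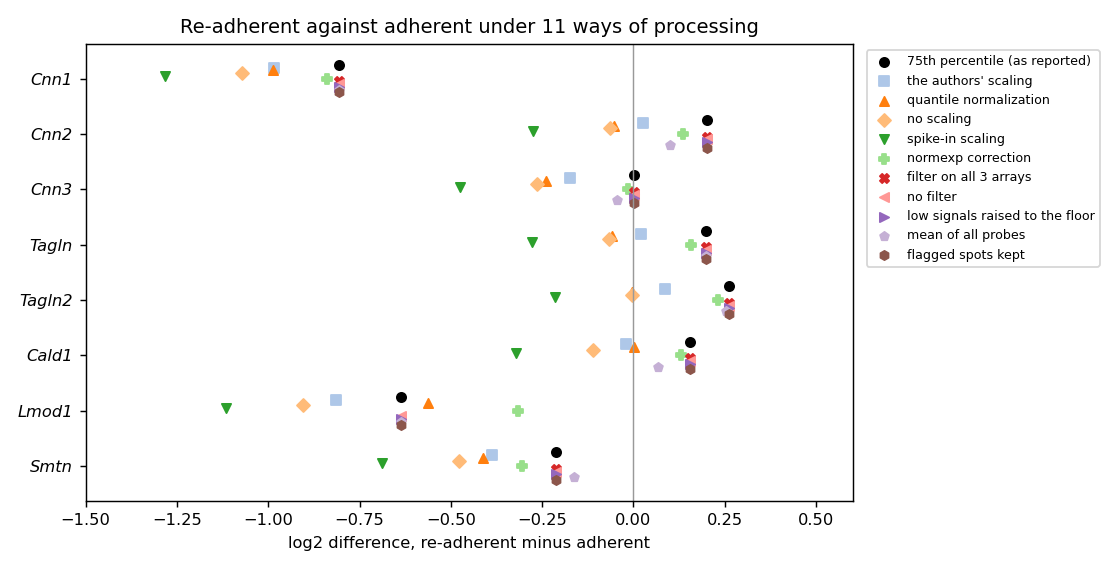
Log2 difference between re-adherent and adherent cells for each gene (horizontal axis) under 11 ways of processing (symbols), black being the values reported in the text. Cnn1 (-1.28 to -0.81), Lmod1 (-1.11 to -0.32) and Smtn (-0.69 to -0.16) stay left of 0, and the other 5 genes lie on both sides.

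For the 5 genes with 2 probes the second probe gave a like result. In suspension the 2 probes of a gene were 0.05 to 0.26 apart in their log2 difference, with Tagln2 at the upper end, and on re-plating 0.03 to 0.31, with Cnn3 at the upper end. With its second probe Tagln2 was lower in suspension by -1.04 and thus just over 2-fold. The 2 Smtn probes are assigned to different transcripts and gave -1.88 and -1.93. Cnn1, Tagln and Lmod1 rest on 1 probe each. Array position was also looked at, by the median difference of the 10 to 28 spots within 3 rows and columns of each member probe. In suspension it ran from -0.82 to 0.29, and the value of -0.82 was that around the Cnn1 spot, where Cnn1 itself was at -8.80. Its part in the Cnn1 result was not tested.

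Close relatives of these genes were also looked at. Of 9 such relatives 7 were measured, and their measured differences in suspension had a median of -0.28. Tagln3 was over 2-fold lower as measured, though with a bound of only 1.79-fold, 2 were over 2-fold higher, and 4 lay between. Smtnl2, a smoothelin-like gene, was higher in suspension (2.05) and lower on re-plating (-3.10), opposite to Smtn. The tropomodulins, which cap the slow-growing ends of actin filaments and belong to the leiomodin family, were at -0.80 for Tmod2, -0.28 for Tmod3 and -0.39 for Tmod4 in suspension, and Tmod1 at 1.86 and Tagln3 at -1.03 were each not well above background on at least 1 of the arrays. Under the other scalings between 0 and 2 of the 7 were over 2-fold lower. Lmod3 was at 0.22, with a sign that turned under another scaling.

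**Figure D3:**
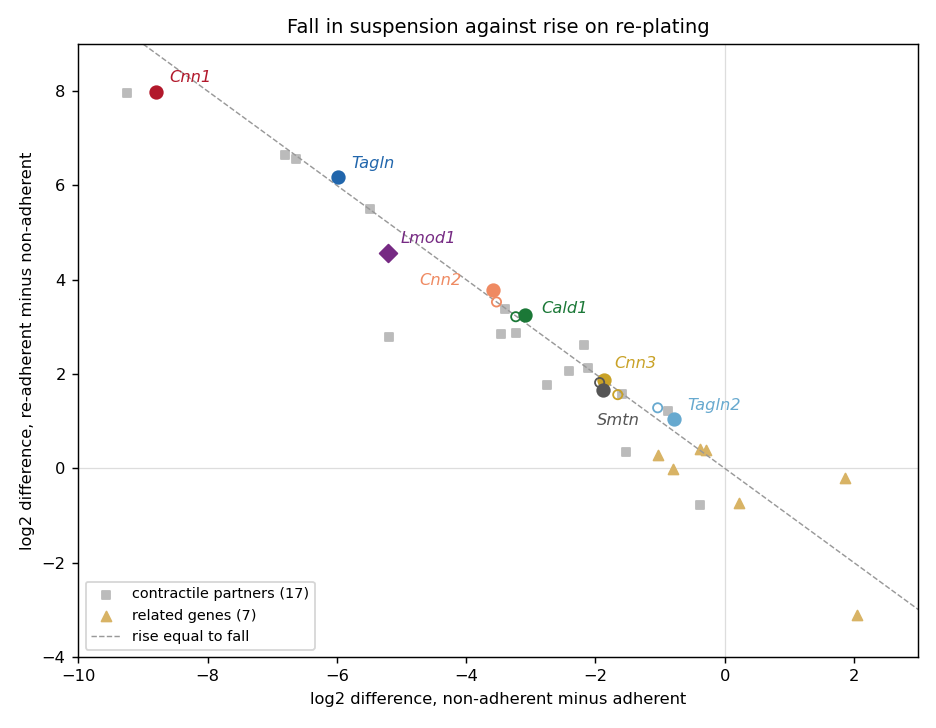
Log2 difference in suspension (horizontal) against log2 difference on re-plating (vertical), for the 8 genes (filled circles, and a diamond for Lmod1, whose position is not a bound), their second probes (open circles), 17 contractile partners (squares) and 7 related genes (triangles). The 8 genes follow the dashed line of equal loss and gain from Cnn1 at -8.80 and 7.99 to Tagln2 at -0.78 and 1.04, and Smtnl2 lies at 2.05 and -3.10 in the opposite corner; both axes use the same non-adherent array, so the points share its error.

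Genes for the proteins with which these binders work on the filament were mostly lower too. Of 17 contractile partners, among them smooth-muscle actins, myosin chains, tropomyosins and cross-linkers, 15 were over 2-fold lower in suspension and none higher (median -2.74), and 15 were over 2-fold higher on re-plating (median 2.61). Under the other scalings these counts were 15 to 16 and 13 to 15. The largest differences of this list were those of Actg2, the enteric smooth-muscle actin, at -9.24 and 7.96, of Myl9, a regulatory myosin light chain, at -6.80 and 6.64, and of Acta2, the smooth-muscle actin used to mark myofibroblasts, at -6.64 and 6.57. Against the adherent cells 4 of the 17 were over 2-fold lower in re-adherent cells, and 4 to 6 over the scalings. Regulators of contraction changed less as a list. Of 12, 3 were over 2-fold lower in suspension and 1, Calm3, was higher (1.06), with a median of -0.36, and over the scalings 3 to 5 were lower and 0 to 1 higher, Calm3 being at 0.83 under one of them. The lower ones included Ppp1r14a, an inhibitor of myosin phosphatase, at -4.75 and then 4.68 on re-plating, and Prkg1, the cGMP-dependent kinase, at -1.70 and 2.48.

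Among Srf and its cofactors, Srf itself had log2 levels of 3.45, 1.79 and 3.48 in adherent, non-adherent and re-adherent cells. It was low on the suspension array alone, with differences of -1.66 and 1.68. Fhl2, a LIM protein that binds Srf, was at -4.32 and 4.55. The coactivators Mrtfa and Mrtfb were at -0.37 and 1.08 in suspension and 0.29 and -0.82 on re-plating, and the sign of Mrtfa on re-plating turned under another scaling. Elk1, which competes with them for Srf, was at -0.26 in suspension. Klf4, a repressor of smooth-muscle genes, was at -0.06, with a sign that depended on the scaling. Myocd, the myocardin of smooth and cardiac muscle, was not well above background in suspension, with a measured difference of -2.50. Over the 7 genes 3 were over 2-fold lower and 1, Mrtfb, higher in suspension, and Mrtfb was under 2-fold (0.85) with another scaling.

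For each binder the genes with the nearest pair of differences (suspension and re-plating, by Euclidean distance on the log2 scale over the 3 arrays, among 13472 genes well above background on all of them) were looked up. Cnn1 was nearest to Actg2 (distance 0.45) and to the glutamate transporter Slc1a6 (1.03), and Tagln to Siglecg (0.69) and Cavin2 (0.74). Lmod1 was nearest to Lims2 (0.19) and Amotl2 (0.22), on its measured and not its bounded value. The remaining genes had neighbours within 0.06: Vegfd and Rin1 for Cnn2, Csrnp1 and Cttn for Cnn3, Rpl29 and Kifc3 for Tagln2, Clca3a1 and Timp3 for Cald1, and Tmem121 and Dixdc1 for Smtn. With 3 arrays such a likeness is a description of these values.

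Markers of other cell types were read on the same arrays, as the sum of the scaled linear levels of a list in units of the array's 75th percentile. Of the fibroblast markers, 12 of 12 were well above background on all 3 arrays. Their summed level was 1423, 1063 and 1297 in adherent, non-adherent and re-adherent cells, and 4 were over 2-fold lower (2 to 5 over the scalings) and 3 higher in suspension, the largest differences being those of Lum (3.56), Thy1 (-3.50) and Fap (1.93). Macrophage markers went against the 8 binders. Of 18 listed 17 were measured, all well above background on each array, and their summed level was 260, 1664 and 547. In suspension 16 of the 17 were over 2-fold higher and none lower, led by Mrc1 (3.58), C1qb (3.44) and C1qa (3.32), and on re-plating 15 were over 2-fold lower and 1 higher. Macrophages also make Cnn2, as background knowledge. The part that this rise had in the levels of the 8 genes was not tested.

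Mural cells, the smooth muscle cells and pericytes of vessels, express several of the binders, and their list of 14 holds Cnn1 itself and Myh11. Its summed level was 114, 72.5 and 82.3 with Cnn1, and 55.1, 72.4 and 48.9 without it, so the sum was lower in suspension with Cnn1 and higher there without it. Most of the sum without Cnn1 was Mcam, with log2 levels of 5.09, 5.79 and 5.10 in adherent, non-adherent and re-adherent cells. That sum therefore mainly follows Mcam and not the list as a whole. In suspension 4 were over 2-fold lower and 2 higher (median -0.13), with Cnn1 at -8.80, Cspg4 at -2.06 and Rgs5, a pericyte marker, at 0.79. On re-plating 6 were over 2-fold lower and 3 higher as measured (median -0.65). In re-adherent against adherent cells 8 were over 2-fold lower and 0 higher (median -1.19), where 4.9% of all genes were lower. Abcc9, Kcnj8 and Vtn were not well above background in adherent and re-adherent cells, nor were Rgs5 in re-adherent and Myh11 and Rgs4 in non-adherent cells. Of 10 endothelial markers 6 were over 2-fold higher in suspension (4 to 6 over the scalings) and 1 lower, the largest differences being those of Tie1 (3.18), Cdh5 (2.94) and Vwf (2.49). On re-plating 8 were over 2-fold lower and 1 higher (median -2.67), and 6 were over 2-fold lower in re-adherent than in adherent cells (6 to 7 over the scalings). The summed levels were 37.5, 42.2 and 39.6. On the plated arrays these sums were mostly Kdr and Eng. Their log2 levels were 3.86 and 3.79 in adherent, 3.51 and 2.39 in non-adherent, and 4.25 and 4.11 in re-adherent cells. Emcn and Tie1 were not well above background in re-adherent cells. Of 9 cardiomyocyte markers 6 were measured, at summed levels of 1.19, 1.98 and 3.38, with Myl7 and Tnni3 not well above background in adherent and re-adherent cells. Myl2 (1.12), Nppa (0.99) and Myh6 (0.96) differed most in suspension. Most of the sum was Tnnt2, with log2 levels of -0.13, 0.46 and 1.60 in adherent, non-adherent and re-adherent cells. On re-plating 2 of the 6 were over 2-fold lower and 1, Tnnt2, higher (2 to 4 and 0 to 1 over the scalings). The part of these cells in the levels of the 8 genes was not tested.

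**Figure D4:**
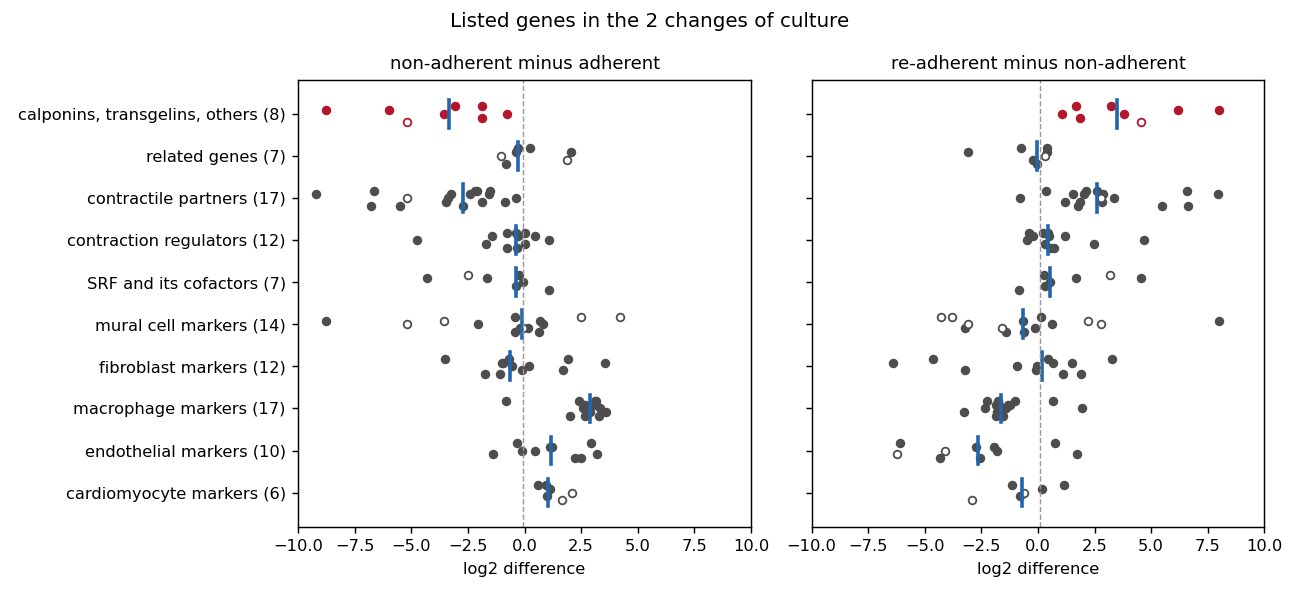
Log2 difference of every measured gene of each list in suspension (left) and on re-plating (right), with the list's size in brackets, open points for genes not well above background on 1 of the 2 arrays, blue bars for list medians and a dashed line for the median of all genes. The 8 binders have medians of -3.33 and 3.51, the contractile partners -2.74 and 2.61, and the macrophage markers 2.90 and -1.62.

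The 3 arrays were of like quality. Between 53.9% and 59.9% of the non-control spots were well above background, no spot was saturated and no spot of a member probe was an outlier in the scanner software. The 75th percentile of the signal was 651, 697 and 541 in the order adherent, suspension, re-adherent. Without scaling, 9.9% of all genes were over 2-fold higher and 23.4% over 2-fold lower on re-plating, in place of the 15.6% and 16.3% above. With spike-in scaling 14.0% were higher and 20.2% lower in suspension, in place of 17.2% and 14.7%, so the background of the counts depends on the scaling. The signs of the 8 genes in both steps did not. Apart from Tagln2 their differences were far larger than the shifts between scalings, so those signs could not turn.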

How the data were processed

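The submitters' processing notes name Agilent Feature Extraction, and per the file headers version 10.10.1.1 made the scanner files. They hold spot intensities deposited by the authors on a linear scale (processed signal, background-subtracted), with an error and quality flags per spot, among them 1 for a signal well above background. The series table deposited by the authors holds the same intensities times a constant per array (1.52, 1.52 and 1.62). Labelling used 0.1 µg of RNA. Slide and scan were shared by the 3 arrays.

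Here the log2 processed signal was used after subtraction of the array's 75th percentile, taken over the 59305 spots that are not controls. Probes were named through their RefSeq transcript without its version (27229 of 55665 probes had a symbol), a gene was kept if at least 1 array showed its probe well above background, and the probe with the highest mean stood for the gene. Where a signal was not well above background, the bound used the lowest signal that was. Errors combine the deposited errors of 2 spots and cover the scanner only, and for bright spots they are close to a fixed share of the signal. The number of arrays, 1 per state, limits the precision. Genes over 2-fold, 4-fold and 16-fold were counted with no test. The array's design build is mm9 per the file headers, so promoter coordinates are those of the RefSeq table. Protein sequences were not analysed here.

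The 8 genes and all lists were chosen with earlier results of these data known. Beyond the 8, the genes named are the 2 nearest to each, the 3 with the largest suspension difference in each list among those well above background on both arrays, and every measured gene of the related-gene and Srf lists. Calm3, Myh11, Mcam, Kdr, Eng, Tnnt2 and the list genes not well above background were added after their values were seen. A gene of the contraction-regulator list is not reported here. In all 10 alternatives in scaling, background correction, filters and probe choice were computed. The mean signal planned for the normexp correction (offset 50) was not used here, and the median signal took its place. The reading of neighbouring spots was added after seeing the data. Calculations used Python 3.11.15, numpy 2.4.6, pandas 2.3.3, R 4.3.3 and limma 3.58.1 and were tested on simulated data.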

Additional observations from a re-analysis of the deposited data

How the results depend on the processing

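No paired analysis was possible because no state has a second array, and for the same reason no array could be left out. In suspension and on re-plating each of the 8 genes kept its sign under the 10 alternatives (9 for Lmod1, which the filter on all 3 arrays drops). Apart from Tagln2 their differences were far larger than the shifts between the scalings, so the kept signs are little check. Of the counts of genes past a fold, 178 stayed within 1.5 times the reported one and 2 did not. These were genes over 2-fold lower in re-adherent than in adherent cells, 0 as reported, 1 without scaling and 2 with spike-in scaling. Most of the 178 were counts of 0 that stayed at 0, so their number says little about stability. Leaving out the filter or keeping flagged spots could not change the values of the 8 genes. The limit of 1.5 times also passed a rise from 5 to 7 genes over 4-fold lower in suspension with spike-in scaling. The scalings moved the median of all genes on re-plating from 0.08 to -0.20 (authors' scaling), -0.01 (quantile), -0.28 (none) and -0.17 (spike-in), and the median of the 8 genes went to 3.24, 3.30, 3.15 and 3.26. Relative to all genes the median of the 8 was 3.43 in every one of these but quantile normalization, where it was 3.32. The authors' scaling, no scaling and spike-in scaling differ from the reported one by a constant per array, which cancels here. Only quantile normalization could give another value, so the shared 3.43 is no check. In suspension the median of the 8 genes was -3.56 with spike-in scaling, with all genes at -0.30. Between the plated states it was -0.15 with quantile normalization, -0.19 without scaling and -0.40 with spike-in scaling. Tagln2 changed sign there, to -0.0047, -0.0033 and -0.21. The normexp correction, which adds an offset to every signal and so changes dim ones most, gave medians of -2.46 and 2.50. It moved Lmod1 to -1.63 and 1.31. The filter on all 3 arrays gave -3.09 and 3.24, and raising low signals to the floor gave 3.00 on re-plating. What limits these data is 1 array per state, and for Lmod1 its signal over background.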
